A study of Mus musculus with 15 samples.

Results

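The data described here are the genotype by region interaction in the whole-tissue (input) RNA of the mouse dentate gyrus: for each gene, the change from wild type (WT) to conditional knockout (cKO) in the ventral dentate gyrus (vDG) minus the same change in the dorsal dentate gyrus (dDG). The libraries were taken by their sample titles and are the 10 inputs of the 15 libraries of the series, 3 WT and 2 cKO from each region. WT mice carried Drd3-Cre KI198 and Rosa26-fsTRAP, a Cre-dependent EGFP-tagged ribosomal protein used for translating ribosome affinity purification (TRAP). The cKO mice carried the same alleles and Htr4-Floxed, so all 4 groups expressed Cre and the tagged ribosome. The mice were 8 to 12 weeks old, no drug treatment is given in the labels, and each input was labelled as a pool of 2 mice. Within the dentate gyrus the Cre line is described as active in granule cells and hilar mossy cells, whereas an input holds the RNA of every cell in the dissected piece. The source field of the sample records names cortex, while the titles and the brain region field name the dentate gyrus, which is used here.

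The dentate gyrus is the entry gate of the hippocampal circuit. Its granule cells receive input from the entorhinal cortex and excite the hilar mossy cells and CA3, and new granule cells are born there in the adult. Its dorsal part is tied mainly to spatial learning and its ventral part to mood and anxiety. Htr4 encodes 5-HT4R, a serotonin receptor that couples to Gs and raises cAMP, which acts through protein kinase A on the CREB and ATF1 transcription factors. An interaction above 0 means that a gene stood higher in the cKO relative to WT in vDG than it did in dDG, and an interaction below 0 means the opposite. It says nothing on its own about which region changed. The change or the levels in a region are given beside it for many genes. For other genes the interaction stands alone.

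Counts on genes ran from 19039295 to 30451430 per library, and the 10 most abundant genes took 11.5 to 15.9% of them. The first principal component of the log2 CPM (counts per 1e6 counts) held 39.0% of the variance and separated the regions. The region markers followed the labels: Lct, a marker of dDG, lay at 31.1 to 50.1 CPM in the vDG libraries and at 132 to 188 CPM in the dDG libraries, and Trhr, a marker of vDG, lay at 15.1 to 32.8 CPM in vDG and at 0.122 to 0.741 CPM in dDG. Dsp, a granule cell marker, was present in every library (32.7 to 244 CPM), while Tyro3, which marks the CA fields, stayed at 1.84 to 8.38 CPM. The libraries of 1 group did not all look alike. Replicate 1 of the cKO vDG had 0 counts for each of the Y-linked genes Ddx3y, Uty, Kdm5d and Eif2s3y, which had 125 to 700 counts in the other 9 libraries, although the study's methods give a male and a female mouse for each pool. Replicates 2 and 3 of the WT dDG held 75.1 and 125 CPM of Ttr, the transthyretin gene of the choroid plexus, against 1.67 to 11.9 CPM in the other 8. The chaperone, ribosomal protein and oxidative phosphorylation counts and the X-linked genes Smc1a, Gprasp1, Sept6, Ddx3x and Hnrnph2 are given with and without the first of these libraries, and Ttr and the choroid plexus list with and without the other pair. Nothing in the records says that same-numbered pools shared mice, and p-values measure the spread between pools.

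No gene passed the interaction test at a false discovery rate (FDR) under 0.05. With the quasi-likelihood test of edgeR, 0 of 16306 genes were called (0%), and the lowest FDR was 0.0997. Before adjustment, 818 genes had p under 0.05 with an interaction above 0 (5.02% of the genes tested) and 1192 with one below 0 (7.31%). DESeq2, run on the same libraries and genes, called 54 genes higher (0.331%) and 202 lower (1.24%) at an FDR under 0.05. Settings of edgeR moved the count as well: it called 120 higher and 242 lower without a count filter, 50 and 98 with a replicate block nested in genotype, and 2 and 46 without cKO dDG replicate 1. At an FDR under 0.1, edgeR listed 3 genes higher (0.0184%) and 9 lower (0.0552%), all with an FDR between 0.0997 and 0.0999. The median interaction of all genes was -0.01 on the log2 scale, with quartiles of -0.27 and 0.27. Interactions below are therefore given as values and not as calls.

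In the same fit, the change with genotype itself was called for 379 genes in vDG (2.32%), 15 higher and 364 lower in the cKO, and for 4 genes in dDG (0.0245%), all lower. Only Apoe, a lipid carrier, and Mfge8, a secreted phagocytosis adaptor, were called in both regions. Their interactions were small, 0.09 for Apoe and 0.03 for Mfge8 on the log2 scale. Of the 379 genes called in vDG, 115 had a log2 change of the opposite sign in dDG, and 272 had an unadjusted interaction p under 0.05. The interaction contains the vDG change, so this last number shares its libraries with the choice of the genes. Over all genes tested, 242 (1.48%) had both cKO libraries above all WT libraries in vDG and below all of them in dDG, and 262 (1.61%) had the reverse arrangement.

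**Figure D1:**
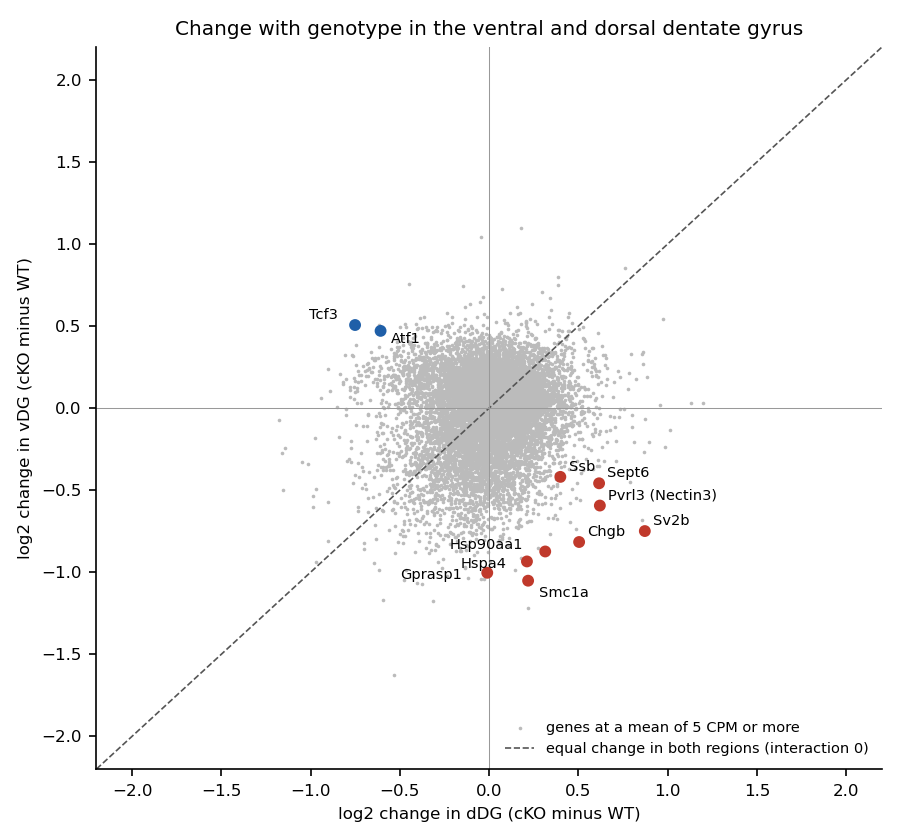
Log2 change from WT to cKO in dDG (horizontal axis) and in vDG (vertical axis) for genes at a mean of 5 CPM or more; the dashed line marks an interaction of 0. Red points are genes with an interaction below 0 at an FDR under 0.1 and blue points those above 0; the red points lie in the lower right, with a negative change in vDG and a change near or above 0 in dDG, and Tcf3 and Atf1 lie in the upper left. Of all genes at this level, 1 lies beyond the axes: Ttr, with -4.48 in dDG and 1.10 in vDG.

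Htr4 itself gave almost the same change in both regions. Its level was 15.2, 19.3 and 14.4 CPM in WT vDG and 30.4 and 28.5 CPM in cKO vDG, and 35.0, 30.1 and 25.9 CPM in WT dDG and 48.7 and 53.9 CPM in cKO dDG. Both cKO libraries lay above all WT libraries in each region. The log2 change was 0.85 ± 0.15 (SE) in vDG and 0.76 ± 0.15 in dDG, and the interaction was 0.09 ± 0.22 (FDR = 0.919). Htr4 lies at chr18:62324204-62496577 (GRCm38). A count pools its exons, so the loss of the floxed exon cannot be seen in it, and it does not check the genotype labels.

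The gene with the lowest interaction p was Hsp90aa1 (chr12:110690605-110702728), which encodes the inducible cytosolic form of the HSP90 chaperone. It lay at 874, 894 and 719 CPM in WT vDG and at 421 and 484 CPM in cKO vDG, without overlap. In dDG the levels were 407, 469 and 486 CPM in WT and 468 and 661 CPM in cKO, and the groups overlapped. The log2 change was -0.87 ± 0.14 in vDG (FDR = 0.0101) and 0.31 ± 0.14 in dDG (FDR = 0.395), and the interaction was -1.19 ± 0.20 (FDR = 0.0997). Both cKO vDG libraries lay within the range of the WT dDG libraries.

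Pvrl3 (chr16:46387706-46498525), the gene now named Nectin3, encodes a cell adhesion protein of synapses. It was at 73.4, 64.9 and 64.3 CPM in WT vDG and at 40.2 and 49.3 CPM in cKO vDG. Its dDG levels were 16.3, 18.7 and 23.1 CPM in WT and 29.2 and 30.6 CPM in cKO. The cKO libraries lay below all WT libraries in vDG and above all of them in dDG. Its interaction was -1.21 ± 0.21 (FDR = 0.0997), made of -0.59 ± 0.15 in vDG (FDR = 0.0378) and 0.62 ± 0.15 in dDG (FDR = 0.145). Sept6, which encodes a septin of the cytoskeleton, had the same arrangement. Its levels were 55.6, 54.8 and 48.1 CPM in WT vDG against 36.8 and 40.1 CPM in cKO vDG, and 18.3, 23.5 and 24.5 CPM in WT dDG against 29.1 and 38.8 CPM in cKO dDG, with an interaction of -1.07 ± 0.21 (FDR = 0.0999). The study itself had picked Pvrl3, Sept6 and Atf1 from these libraries for opposite changes in the regions, so their directions here are not independent evidence.

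Among the other genes with the lowest p, Smc1a, a subunit of the cohesin complex, was at 144, 141 and 106 CPM in WT vDG and at 57.5 and 68.1 CPM in cKO vDG. In dDG it was at 100, 102 and 121 CPM in WT and at 100 and 150 CPM in cKO, where the groups overlapped. Its interaction was -1.27 ± 0.23 (FDR = 0.0999). Gprasp1, which sorts internalized G protein-coupled receptors to lysosomes, was at 366, 420 and 377 CPM in WT vDG and at 182 and 205 CPM in cKO vDG. In dDG it was at 236, 260 and 269 CPM in WT and at 211 and 296 CPM in cKO, a log2 change of -0.01. In vDG it fell (log2 change -1.004 ± 0.14, FDR = 0.00761), and its interaction was -0.99 ± 0.19 (FDR = 0.0999). Smc1a, Gprasp1 and Sept6 are X-linked, and the cKO vDG library without Y-linked counts bears on them. Without that library their interactions were -1.16, -0.91 and -1.02.

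Chgb, which encodes the granin chromogranin B of dense-core vesicles, was at 695, 721 and 511 CPM in WT vDG and at 317 and 412 CPM in cKO vDG. In dDG it was at 422, 340 and 449 CPM in WT and at 439 and 706 CPM in cKO, and its interaction was -1.32 ± 0.26 (FDR = 0.0999). The 2 cKO dDG libraries differ for Chgb, Hsp90aa1 and Smc1a, with replicate 2 the higher. Without cKO dDG replicate 2 the interactions were -0.94 for Chgb, -0.92 for Hsp90aa1 and -0.95 for Smc1a, and without replicate 1 they were -1.62, -1.41 and -1.53. Of the 24 alternative fits, 9 put Chgb past an FDR of 0.05, 11 put Hsp90aa1 past it and 9 put Smc1a past it. Ssb, which encodes the La protein that binds the ends of new RNA polymerase III transcripts, completed the genes under an FDR of 0.1 with Sv2b and Hspa4, which are given with their classes. Its interaction was -0.82 ± 0.16 (FDR = 0.0999), with the cKO libraries below all WT libraries in vDG (57.9 and 61.1 against 74.7 to 82.5 CPM) and above all of them in dDG (81.1 and 93.8 against 63.3 to 68.0 CPM).

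On the other side, Atf1 (chr15:100227819-100261244), a transcription factor of the CREB family that protein kinase A activates, was at 29.3, 26.9 and 31.2 CPM in WT vDG and at 39.8 and 40.9 CPM in cKO vDG. The dDG levels of Atf1 were 51.9, 37.4 and 48.6 CPM in WT and 32.6 and 27.8 CPM in cKO. The groups did not overlap in either region, and the interaction was 1.08 ± 0.21 (FDR = 0.0999). Tcf3, which encodes the E proteins E12 and E47 that pair with proneural transcription factors, was at 7.81, 6.76 and 7.81 CPM in WT vDG and at 10.8 and 10.4 CPM in cKO vDG. In dDG it was at 10.0, 8.79 and 10.6 CPM in WT and at 5.79 and 5.88 CPM in cKO, and its interaction was 1.26 ± 0.25 (FDR = 0.0999). Leaving out any 1 library kept the interaction of Atf1 between 0.97 and 1.21 and that of Tcf3 between 1.19 and 1.33.

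**Figure D2:**
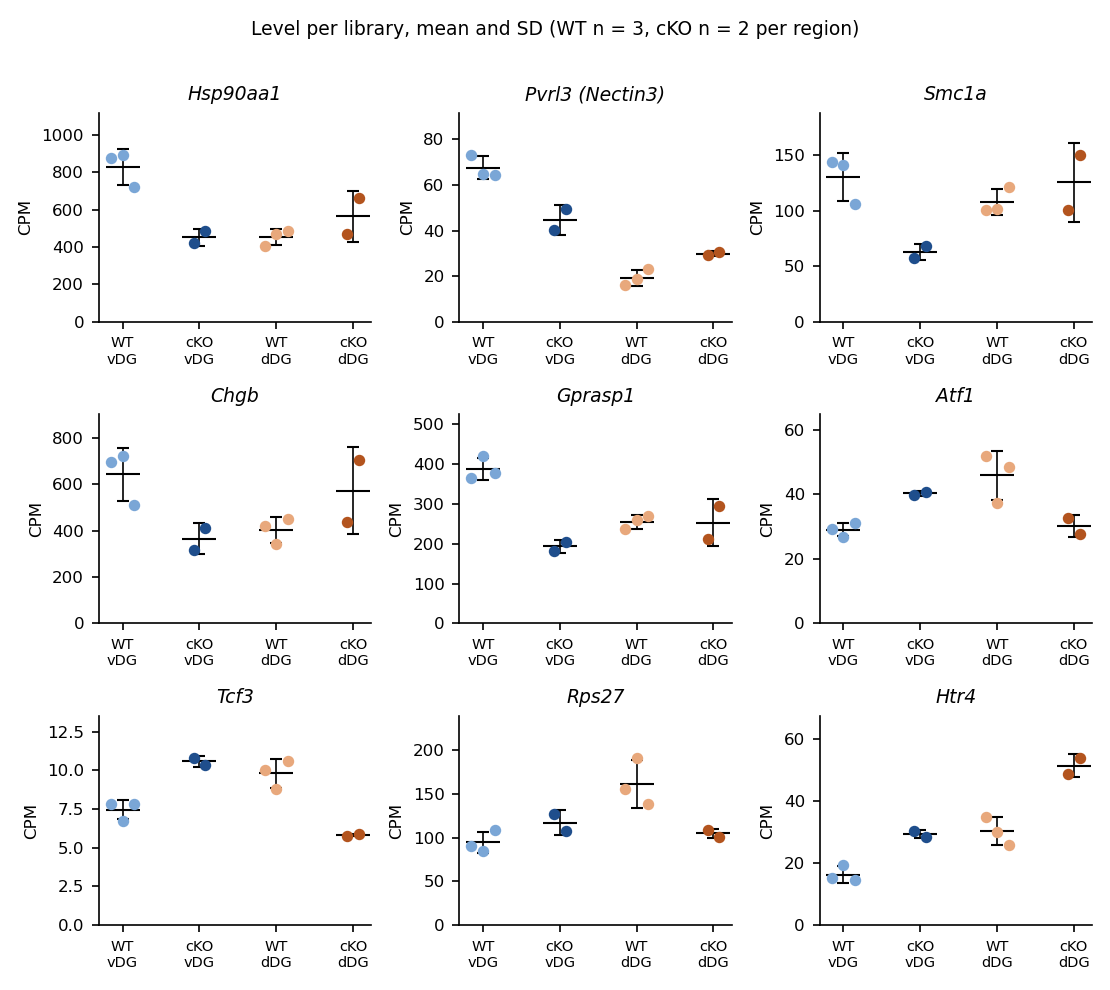
CPM of 9 genes in each input library (points), with the mean (horizontal bar) and SD (error bar) of each group, WT n = 3 and cKO n = 2 per region. Hsp90aa1, Smc1a, Chgb and Gprasp1 separate by genotype in vDG and overlap in dDG, Pvrl3, Atf1 and Tcf3 separate in both regions in opposite directions, and Htr4 is higher in the cKO of both regions.

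The class with the lowest median interaction among those with at least 10 members tested was the HSP70 and HSP90 chaperones, which fold new and stressed proteins. All 17 listed genes were tested, 15 had an interaction below 0, and 13 (76.5%, against 7.31% of all genes) had an unadjusted p under 0.05 in that direction. That number was 8 without cKO dDG replicate 2 and 9 without cKO vDG replicate 1. Their median interaction was -0.54, beside a median log2 change of -0.62 in vDG and 0.01 in dDG. The summed level of the class was 5758, 5763 and 5112 CPM in WT vDG and 3152 and 3796 CPM in cKO vDG, without overlap. The dDG sums were 3922, 4357 and 4292 CPM in WT and 3700 and 4621 CPM in cKO, where the groups overlapped.

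After Hsp90aa1, the lowest p in the class was that of Hspa4, a nucleotide exchange factor of HSP70 (chr11:53259814-53300457). Its levels were 297, 299 and 227 CPM in WT vDG and 124 and 163 CPM in cKO vDG, and its interaction was -1.15 ± 0.23 (FDR = 0.0999). Hsph1, another exchange factor, had an interaction of -0.75 ± 0.17 (FDR = 0.144). The constitutive cytosolic members Hspa8 and Hsp90ab1 had -0.53 ± 0.19 and -0.60 ± 0.18, the endoplasmic reticulum members Hspa5 and Hsp90b1 -0.54 ± 0.16 and -0.53 ± 0.17, and the mitochondrial Hspa9 -0.53 ± 0.19, with an FDR of 0.193 for Hsp90ab1 and Hspa5, 0.203 for Hsp90b1, 0.264 for Hspa8 and 0.274 for Hspa9. The stress-induced pair Hspa1a and Hspa1b, whose near-identical sequences may share reads, was scarce, at means of 3.89 and 1.89 CPM, with interactions of -1.01 ± 0.34 (FDR = 0.239) and -1.28 ± 0.51 (FDR = 0.315). Hspa14 and Hspa1l lay at -0.02 and 0.03. The median of the class stayed between -0.71 and -0.46 when any 1 library was left out, and was -0.56 with the trend on GC content removed and -0.54 with the trend on exonic length removed.

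Heat shock factor 1 binds inverted GAA units in the promoters of inducible chaperone genes, so the promoters of the class are shown for the members that do and do not hold them. The window was 250 bases before to 50 bases from the annotated start (RefSeq, GRCm38.p6), and a match was TTCNNGAA or GAANNTTC, each of which reads the same on both strands. Of the 17 chaperone genes 12 had a promoter in the table, and 3 of them (25%) held a match, against 15.1% of all 32851 promoters. The 3 stretches below are upstream of the start and run 5' to 3' on the strand of the gene, with a match in capitals, at positions -33 to -26 in Hsph1, the first of its matches, and -104 to -97 in Hspa1b. They lie at chr5:149636337-149636396 on the minus strand, chr17:34959309-34959368 on the minus strand and chr11:53300480-53300539 on the minus strand.
Hsph1: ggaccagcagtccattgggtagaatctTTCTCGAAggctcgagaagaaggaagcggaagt
Hspa1b: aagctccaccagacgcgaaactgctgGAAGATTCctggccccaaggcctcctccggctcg
Hspa4: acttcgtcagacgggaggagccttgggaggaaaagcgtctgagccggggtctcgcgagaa
Hspa4, which had one of the larger interactions of the class, held no match in its window, nor did Hspa5 or Hsp90b1. The promoters of Hsp90aa1, Hsp90ab1, Hspa8, Hspa9 and Hspa13 were not analysed here.

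Ribosomal protein genes went the other way. Of the 83 listed genes 77 were tested, and all 77 had an interaction above 0, between 0.05 for Rpl4 and 1.14 for Rplp1. The median was 0.61, beside a median log2 change of 0.20 in vDG, where 77 of 77 lay above 0, and -0.41 in dDG, where 68 of 77 lay below 0. An unadjusted p under 0.05 was reached by 60 (77.9%, against 5.02% of all genes), and none passed an FDR of 0.05 or 0.1. The number with an unadjusted p under 0.05 was 23 without cKO vDG replicate 1, 31 without cKO dDG replicate 2 and 40 without WT dDG replicate 2. Without cKO vDG replicate 1 the interaction was above 0 for 73 of the 77. In 7 of the 77 the cKO libraries lay above all WT libraries in vDG and below all of them in dDG (9.09%, against 1.48% of all genes), namely Rps16, Rps20, Rpl8, Rpl41, Rpl28, Rpl37a and Rplp0. The class summed to 8137, 7450 and 8268 CPM in WT vDG and 9912 and 8550 CPM in cKO vDG, and to 10790, 13050 and 10069 CPM in WT dDG and 10020 and 8851 CPM in cKO dDG. The genotypes did not overlap in either region, but replicate 3 of the WT dDG lay just above replicate 1 of the cKO dDG.

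The members with the lowest p were Rps27, Rps21 and Rplp1, parts of the small subunit and of the stalk of the large subunit. Rps27 was at 90.6, 85.2 and 109 CPM in WT vDG and at 127 and 107 CPM in cKO vDG, and at 156, 192 and 138 CPM in WT dDG and 109 and 101 CPM in cKO dDG. Its interaction was 0.93 ± 0.20 (FDR = 0.144). Rps21 had 1.09 ± 0.25 and Rplp1 1.14 ± 0.26, both with an FDR of 0.144. In all 3 the genotypes overlapped in vDG and separated in dDG. DESeq2 called 20 of the 77 ribosomal protein genes higher and 6 of the 17 chaperone genes lower at an FDR under 0.05, against 0.331% of all genes higher and 1.24% lower.

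Messenger RNAs of ribosomal proteins usually begin in a run of pyrimidines, through which their translation is controlled. A run of at least 7 C or T bases that takes in the annotated start was present in 17 of 56 ribosomal protein promoters in the table (30.4%), in 4 of 64 promoters of oxidative phosphorylation genes (6.25%) and in 5.28% of all promoters. The 2 examples show 20 bases before and 15 bases from the start of genes with a low interaction p, with the run in capitals (positions -2 to 7 and -2 to 5). They lie at chr3:90213634-90213668 on the minus strand and chr2:180257359-180257393 on the plus strand.
Rps27: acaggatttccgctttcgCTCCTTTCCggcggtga
Rps21: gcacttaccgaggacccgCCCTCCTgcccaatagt

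The nuclear genes of oxidative phosphorylation, which build the respiratory chain and the ATP synthase, resembled the ribosomal protein genes with more exceptions. Of 81 tested, 69 had an interaction above 0 and 12 below, with a median of 0.44 (0.17 in vDG and -0.29 in dDG). An unadjusted p under 0.05 was reached by 36 above 0 (44.4%, against 5.02% of all genes) and by 2 below 0 (2.47%, against 7.31%). The number above 0 was 11 without cKO vDG replicate 1, 13 without cKO dDG replicate 2 and 23 without WT dDG replicate 2. The lowest p was that of Atp5g2, a subunit of the membrane ring of the ATP synthase, with an interaction of 0.96 ± 0.25 (FDR = 0.167) and levels of 13.4, 14.2 and 17.9 CPM in WT vDG, 22.3 and 20.4 CPM in cKO vDG, 20.4, 26.3 and 20.01 CPM in WT dDG and 18.8 and 13.2 CPM in cKO dDG. Atp5e, the epsilon subunit of its stalk, had 1.04 ± 0.28 (FDR = 0.167). The members below 0 at that p were Ndufs1 of complex I (-0.52 ± 0.20, FDR = 0.288) and Sdha of complex II (-0.35 ± 0.16, FDR = 0.383). Proteasome genes had a median of 0.15, with 4 of 39 above 0 (10.3%, against 5.02% of all genes) and 1 below 0 (2.56%, against 7.31%) at an unadjusted p under 0.05.

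**Figure D3:**
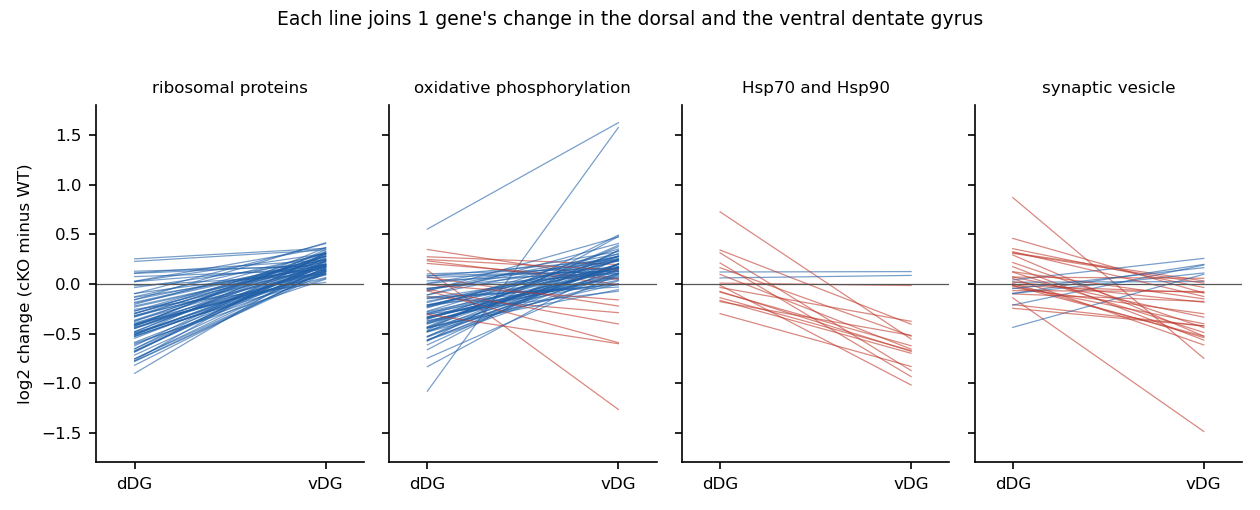
Log2 change from WT to cKO of each tested member of 4 classes in dDG (left end of each line) and vDG (right end); blue lines have an interaction above 0 and red lines one below 0. All 77 ribosomal protein lines and 69 of 81 oxidative phosphorylation lines are blue, and 15 of 17 HSP70 and HSP90 lines and 25 of 32 synaptic vesicle lines are red.

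These classes differ in gene length, and the interaction moved with length over all genes. The genes were split into 5 bins of equal size by exonic length. In the bin of the shortest genes (56 to 2468 bases) the median interaction was 0.21, and in the bin of the longest it was -0.16. The shares with an unadjusted p under 0.05 were 12.1% above 0 and 1.76% below 0 in the shortest bin, and 1.09% above 0 and 16.9% below 0 in the longest. By GC content the medians ran from -0.16 in the bin with the lowest values to 0.19 in the bin with the highest. Both trends had opposite slopes in the regions: from the shortest to the longest bin the median change went from 0.12 to -0.11 in vDG and from -0.11 to 0.04 in dDG. The ribosomal protein genes have a median exonic length of 1781 bases and the oxidative phosphorylation genes of 1631 bases, both inside the shortest bin. With the length trend removed from each library, the median interaction of the ribosomal protein genes was 0.41, with 71 of 77 above 0 and 37 at an unadjusted p under 0.05, and that of the oxidative phosphorylation genes was 0.20. With the GC trend removed they were 0.54 and 0.43. How much of a class value belongs to these trends was not tested further.

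**Figure D4:**
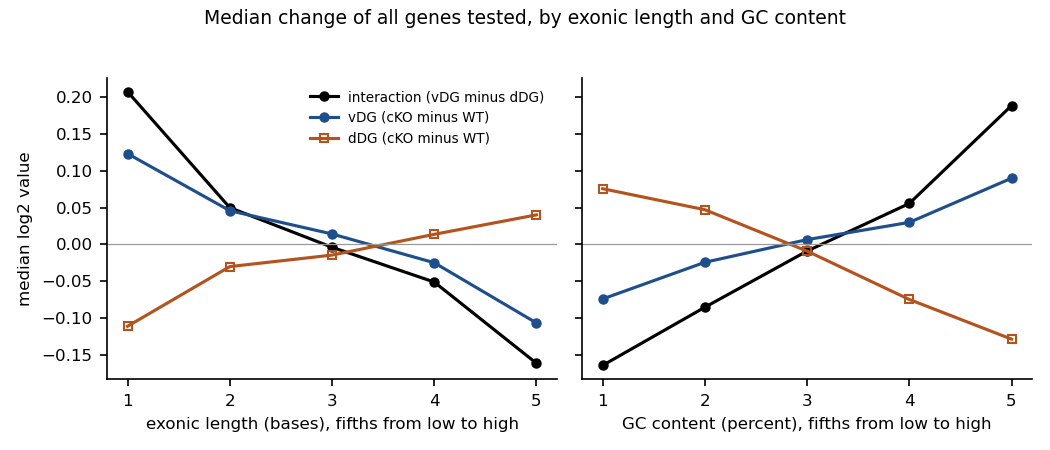
Median interaction (black), median log2 change in vDG (blue) and in dDG (orange) of all genes tested, in 5 bins of equal size by exonic length (left) and GC content (right). The interaction falls from 0.21 in the shortest to -0.16 in the longest bin and climbs from -0.16 to 0.19 with GC content, while the lines of the regions cross.

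Classes of synaptic and membrane proteins had medians below 0. Of 32 synaptic vesicle genes, 25 had an interaction below 0, with a median of -0.28 and 11 (34.4%, against 7.31% of all genes) at an unadjusted p under 0.05, or 6 without cKO dDG replicate 2. Sv2b, which encodes a vesicle glycoprotein and also marks mossy cells and CA3 cells within the hippocampus, had -1.62 ± 0.32 (FDR = 0.0999). It was at 388, 442 and 387 CPM in WT vDG and 237 and 245 CPM in cKO vDG, but at 51.9, 59.4 and 97.2 CPM in WT dDG and 88.1 and 167 CPM in cKO dDG. The groups overlapped in dDG, where replicate 2 of the cKO was the highest. Syt11, a synaptotagmin, had -0.67 ± 0.18 (FDR = 0.171) from a log2 change of -0.62 in vDG (FDR = 0.0204) and 0.06 in dDG. Snap25, a SNARE protein of vesicle fusion, had -0.55 ± 0.19 (FDR = 0.245) from a log2 change of -0.09 in vDG and 0.46 in dDG.

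For the receptors, 22 of 25 glutamate receptor genes and 13 of 14 GABA receptor genes had an interaction below 0, with medians of -0.28 and -0.36. At an unadjusted p under 0.05 there were 5 glutamate receptor genes below 0 (20%, against 7.31% of all genes) and 1 above (4%, against 5.02%), Grm2 with 0.38 (FDR = 0.392), and 6 GABA receptor genes below 0 (42.9%). The GABA receptor number was 3 without WT vDG replicate 2, 1 without cKO vDG replicate 2 and 2 without cKO dDG replicate 2, and the glutamate receptor number below 0 was 8 without WT vDG replicate 1. The AMPA receptor subunit gene Gria3 had -0.62 ± 0.19 (FDR = 0.193), with 258, 339 and 279 CPM in WT vDG, 207 and 201 CPM in cKO vDG, 259, 214 and 249 CPM in WT dDG and 230 and 288 CPM in cKO dDG. Gria3 is X-linked too, and its interaction without the cKO vDG library that lacks Y-linked counts is not given. That library, at 207 CPM, lay close to the other cKO vDG library. Gabbr2, a subunit of the GABAB receptor, had -0.53 ± 0.19 (FDR = 0.247). With the length trend removed the median of the glutamate receptors was -0.10 and that of the GABA receptors -0.30.

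Ion channels and pumps followed the same side. The sodium channel and pump genes had a median of -0.36 (15 of 17 below 0), led by Atp1b1, the beta subunit of the sodium pump, with -0.59 ± 0.17 (FDR = 0.186). The calcium handling genes had -0.22 (32 of 45 below 0), and their lowest p values were those of Atp2b1, a plasma membrane calcium pump (-0.72 ± 0.19, FDR = 0.150), and Ryr2, a calcium release channel (-0.64 ± 0.17, FDR = 0.150). The potassium channels had -0.19 (48 of 73 below 0). Kcnq5, a channel of the M current, was at 73.5, 93.3 and 73.7 CPM in WT vDG and 49.5 and 46.8 CPM in cKO vDG, against 5.79, 8.79 and 12.5 CPM in WT dDG and 11.6 and 14.1 CPM in cKO dDG, an interaction of -1.22 ± 0.29 (FDR = 0.144). Kcnc2, a fast delayed rectifier, separated in both regions, below WT in vDG and above WT in dDG, with -0.75 ± 0.19 (FDR = 0.150). Cadherins and protocadherins had a median of -0.34, with 67 of 82 below 0 and 15 (18.3%, against 7.31% of all genes) at an unadjusted p under 0.05. That number was 9 without WT vDG replicate 2, 7 without cKO vDG replicate 2 and 8 without cKO dDG replicate 2. The calcium handling list has a median exonic length of 8963 bases, inside the longest bin, whose median interaction was -0.16. The sodium list (5461 bases) and the cadherins (5278.5 bases) fall in the bin of 5259 to 7645 bases, with a median of -0.05. The potassium list (4685 bases) falls in the bin of 3747 to 5259 bases, with a median of -0.004. How much of these medians belongs to length was not tested further.

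**Figure D5:**
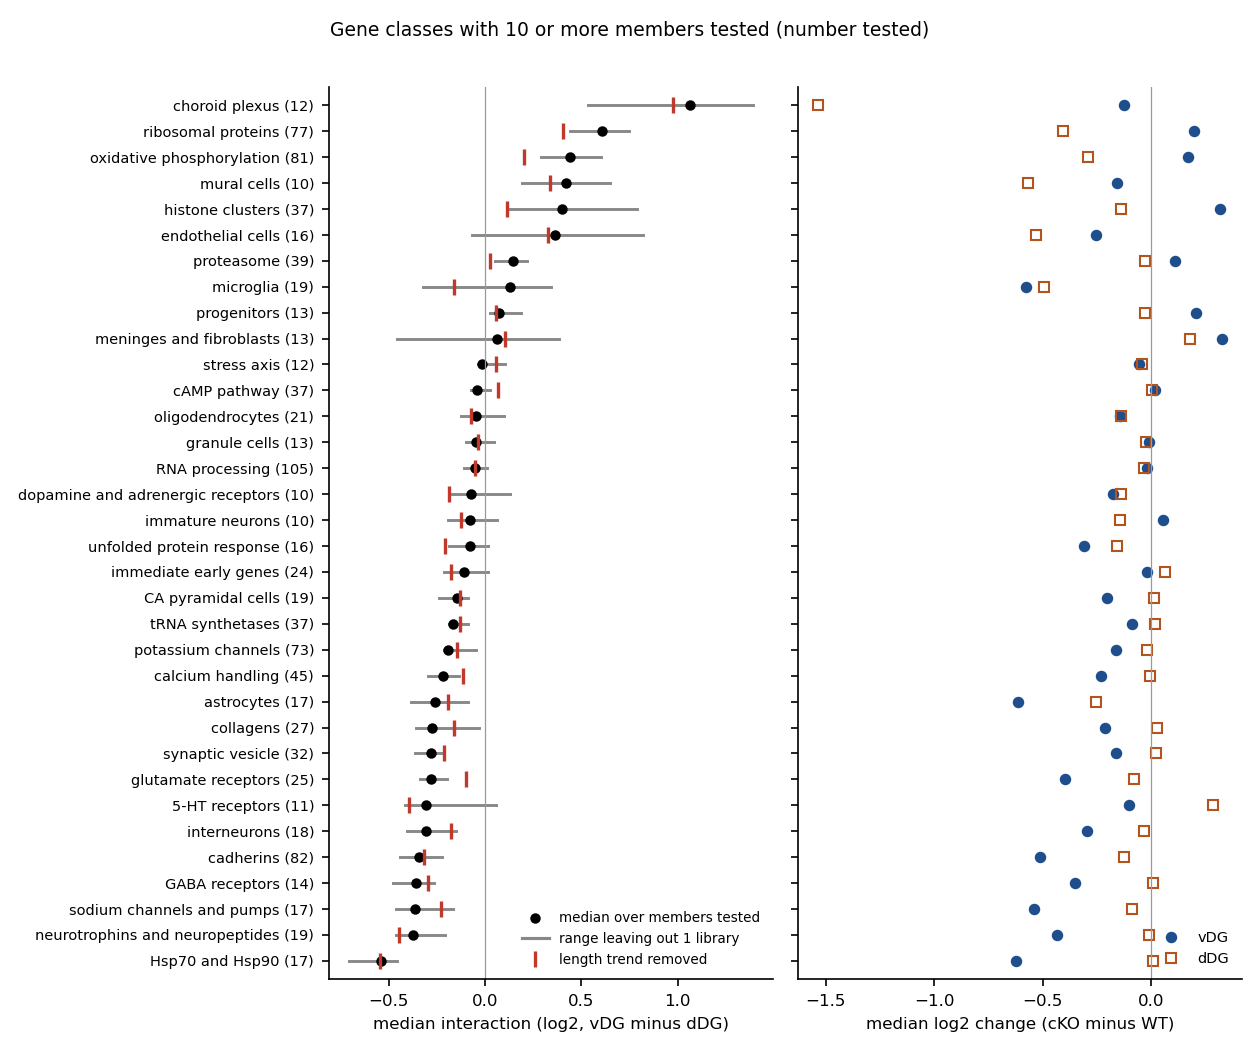
Left, median interaction of each class with 10 or more members tested (black points), its range when 1 library at a time is left out (grey lines) and its value with the length trend removed (red marks). Right, the median log2 change from WT to cKO in vDG (filled blue) and dDG (open orange); the choroid plexus list has the highest median interaction (1.07) and the HSP70 and HSP90 list the lowest (-0.54).

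Marker lists of the cell types in the dissected tissue were read in the same way. In bulk RNA, fewer cells of a type and less RNA per cell cannot be told apart. All 17 astrocyte markers had an interaction below 0, with a median of -0.26 and 3 (17.6%, against 7.31% of all genes) at an unadjusted p under 0.05. That number was 1 without cKO dDG replicate 2, 5 without WT dDG replicate 1 and 6 without cKO dDG replicate 1. Slc1a2, the main astrocytic glutamate transporter, had -0.66 ± 0.22 (FDR = 0.234) and fell in vDG (log2 change -0.92 ± 0.16, FDR = 0.0109), and the water channel Aqp4 had -0.61 ± 0.21 (FDR = 0.243). The summed astrocyte level was 6083, 6864 and 6182 CPM in WT vDG and 4010 and 3688 CPM in cKO vDG, without overlap, and 7075, 5662 and 5626 CPM in WT dDG and 4322 and 6082 CPM in cKO dDG. The gap junction gene Gja1 had a log2 change of -0.63 in vDG and -0.59 in dDG, and Mlc1 had -0.62 and -0.60. Without cKO dDG replicate 2 the median interaction of the list was -0.09. Microglia markers were at a median log2 change of -0.58 in vDG and -0.50 in dDG, and 0 of 19 had an unadjusted interaction p under 0.05, against 5.02% of all genes above 0 and 7.31% below.

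The largest interaction of a gene under an FDR of 0.1 was that of Ttr, 5.58 ± 1.10 (FDR = 0.0999). It lay at 3.53, 3.15 and 5.08 CPM in WT vDG and 4.90 and 11.9 CPM in cKO vDG, and at 4.26, 75.1 and 125 CPM in WT dDG and 4.32 and 1.67 CPM in cKO dDG. Replicate 1 of the WT dDG lay with the cKO libraries, so the groups overlapped in dDG, and without WT dDG replicates 2 and 3 the interaction was 1.59. Of the 16 choroid plexus markers 12 were tested, and 11 of the 12 had an interaction above 0, with a median of 1.07. The summed level of the list was 73.4, 154 and 228 CPM in WT dDG, 59.0 and 53.9 CPM in cKO dDG, 53.3 to 61.7 CPM in WT vDG and 46.8 and 62.8 CPM in cKO vDG. The ventricular choroid plexus lies beside the hippocampus. Without WT dDG replicates 2 and 3 the median of the list was 0.38. In that fit the median of the chaperones was -0.64, and that of the ribosomal protein genes was 0.54, with 72 of 77 above 0. The blood list summed to 6.79 to 10.5 CPM in WT dDG and 4.16 to 4.31 CPM in cKO dDG. Its haemoglobin gene Hbb-bs was at 6.34, 3.65 and 3.17 CPM in WT dDG and at 1.55 and 1.91 CPM in the cKO dDG, with an interaction of 1.58 ± 0.47 (FDR = 0.193).

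The neuronal marker lists differed in their medians. The granule cell list had -0.05, with 4 of 13 above 0 and 9 below. At an unadjusted p under 0.05 it held 2 above 0 (15.4%, against 5.02% of all genes) and 1 below (7.69%, against 7.31%). Those above were Grm2 and Nrgn, a postsynaptic calmodulin-binding protein, with Nrgn at 0.75 ± 0.26 (FDR = 0.241). The gene below was Tdo2 at -0.46 ± 0.20 (FDR = 0.367). Dsp had -0.65 ± 0.32 (FDR = 0.408), from a log2 change of -0.94 in vDG (FDR = 0.0375) and -0.29 in dDG. The mossy cell list was split: its summed level was 469, 525 and 491 CPM in WT vDG and 331 and 324 CPM in cKO vDG, mostly from Sv2b, while Drd2 had an interaction of 0.01 and Calb2 of 0.22. Calcrl, a peptide receptor chain and the other member with a low p, had -0.93 ± 0.31 (FDR = 0.237). Markers of CA pyramidal cells had a median of -0.15 (11 of 19 below 0), interneuron markers -0.31 (14 of 18 below 0, of which 4 had an unadjusted p under 0.05, 22.2% of the list against 7.31% of all genes) and oligodendrocyte markers -0.04. The interneuron number was 7 without WT vDG replicate 1, 2 without WT vDG replicate 2 or WT dDG replicate 1, and 1 without cKO vDG replicate 2 or cKO dDG replicate 2. Among the CA markers, Rgs14, a regulator of G protein signalling typical of CA2, had 0.93 ± 0.23 (FDR = 0.144) and Socs2 -0.91 ± 0.28 (FDR = 0.203).

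The lists nearest to the receptor and to adult neurogenesis follow. Of 11 serotonin receptor genes tested, 0 had an unadjusted p under 0.05 for the interaction in edgeR, against 5.02% of all genes above 0 and 7.31% below. Of 37 genes of the cAMP pathway 1 lay above 0 at an unadjusted p under 0.05, Atf1 (2.70%, against 5.02% of all genes), and 6 below 0 (16.2%, against 7.31%), among them the phosphodiesterases Pde1a (-0.64 ± 0.18, FDR = 0.182), Pde4b and Pde4d, which break down cAMP, and 3 adenylyl cyclases. The number below 0 was 3 without either cKO vDG library or WT dDG replicate 2 and 1 without WT vDG replicate 2 or cKO dDG replicate 2. Pde1a was at 52.9, 65.7 and 69.1 CPM in WT dDG and at 78.3 and 98.3 CPM in cKO dDG. For immature neurons 0 of 10 markers had an unadjusted p under 0.05, against the same 5.02% of all genes above 0 and 7.31% below. Dcx, which marks them, was at 45.0, 67.1 and 57.9 CPM in WT vDG, 68.1 and 64.6 CPM in cKO vDG, 36.8, 80.6 and 72.9 CPM in WT dDG and 97.9 and 94.0 CPM in cKO dDG, an interaction of -0.37 ± 0.31 (FDR = 0.684). Nr2e1, which encodes the neural stem cell factor TLX, had -0.20 ± 0.25 (FDR = 0.810), and the progenitor list had a median of 0.08, with 7 of 13 above 0 and 6 below. At an unadjusted p under 0.05 it held 1 gene below 0 (7.69%, against 7.31% of all genes), the proliferation marker Mki67 with -0.77 ± 0.29 (FDR = 0.282), and 1 above (7.69%, against 5.02%), the stem cell factor Sox2 with 0.71 ± 0.26 (FDR = 0.285), so the list lay near the share of all genes. Tac2 lay at 0.171 to 0.976 CPM in the 10 libraries, and its interaction of -1.09 ± 0.87 (FDR = 0.665) was not resolved at this depth.

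Among secreted factors the neurotrophin and neuropeptide list had a median of -0.37, with 15 of 19 below 0. Scg2, secretogranin II, had -0.59 ± 0.17 (FDR = 0.182) and Bdnf -0.50 ± 0.19 (FDR = 0.307). The immediate early genes had a median of -0.11. At an unadjusted p under 0.05, 3 of 24 lay below 0 (12.5%, against 7.31% of all genes), namely Inhba, a subunit of activin A, with -0.91 ± 0.26 (FDR = 0.178), Bdnf and Nr4a3, and 1 lay above 0 (4.17%, against 5.02%), Ier2 with 1.62 ± 0.76 (FDR = 0.392). The number below 0 was 1 without cKO vDG replicate 1 or cKO dDG replicate 2 and 5 without cKO vDG replicate 2. Of the stress axis genes only Crhr1, the receptor of corticotropin-releasing hormone, had an unadjusted p under 0.05 among the 12 tested (8.33% above 0, against 5.02% of all genes), with an interaction of 1.12 ± 0.40 (FDR = 0.260). It was at 3.02, 2.86 and 2.97 CPM in WT vDG and 4.66 and 3.50 CPM in cKO vDG, and at 1.85, 2.47 and 2.32 CPM in WT dDG and 1.39 and 1.42 CPM in cKO dDG. In the unfolded protein response list, 5 of 16 lay below 0 at an unadjusted p under 0.05 (31.2%, against 7.31% of all genes), led by the disulfide isomerase Pdia3 (-0.72 ± 0.18, FDR = 0.150), and 1 lay above 0 (6.25%, against 5.02%), Manf, a secreted factor of that response, with 0.60 ± 0.24 (FDR = 0.318). The endoplasmic reticulum chaperones Hspa5 and Hsp90b1 are counted in this list as well as in the chaperone list. The RNA helicase and splicing genes on the X chromosome, Ddx3x (-0.86 ± 0.22, FDR = 0.150) and Hnrnph2 (-0.91 ± 0.22, FDR = 0.144), had the lowest p of the 105 RNA processing genes, whose median was -0.05. Without cKO vDG replicate 1, the library without Y-linked counts, they had -0.84 and -0.66. Lars2, the mitochondrial leucyl-tRNA synthetase, had 0.86 ± 0.23 (FDR = 0.167), with 4859, 3793 and 3513 CPM in WT dDG and 2476 and 2019 CPM in cKO dDG. The tRNA synthetase list, which holds it, had a median of -0.16, with 23 of 37 below 0 and 14 above. At an unadjusted p under 0.05, 7 lay below 0 (18.9%, against 7.31% of all genes) and only Lars2 above (2.70%, against 5.02%). Lars2 held most of the dDG sums of the list, 5957, 4938 and 4675 CPM in WT and 3627 and 3223 CPM in cKO. The vDG sums overlapped, at 3957, 4080 and 5082 CPM in WT and 3815 and 4673 CPM in cKO.

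The vascular and connective lists rested on few reads. Endothelial markers had a median interaction of 0.36, which ran from -0.07 to 0.82 when any 1 library was left out, and mural cell markers had 0.42 (0.19 to 0.65). The meningeal list had 0.06, with 7 of 13 above 0 and 6 below. Its only gene with an unadjusted p under 0.05 (7.69% above 0, against 5.02% of all genes) was Igf2, a growth factor of the meninges. Igf2 had 0.92 ± 0.35 (FDR = 0.294), from a log2 change of 1.10 in vDG (FDR = 0.0234) and 0.18 in dDG. Histone cluster genes, which are short, had 0.40, and 0.11 with the length trend removed. Collagens had -0.27, and dopamine and adrenergic receptors -0.07, with 4 of 10 above 0 and 6 below. Adra2c, an alpha-2 adrenergic receptor, had 0.86 ± 0.27 (FDR = 0.206), from a log2 change of 0.12 in vDG and -0.74 in dDG. Long noncoding RNAs had 0.05, thalamic markers -0.01 and ependymal markers -0.11, the last from 3 genes.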

How the data were processed

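The 10 input libraries were grouped by genotype and region from their labels. RNA had been amplified with the NuGEN Ovation V2 system and made into TruSeq v2 libraries, which do not keep strand, so overlapping and antisense genes cannot be told apart. The authors trimmed adaptors, aligned reads to mm10 with STAR 2.4.2a, removed duplicates with SAMtools 0.1.19-444 and counted reads per gene with HTSeq. The deposited counts are not normalized. Lines that name no gene held 32.2 to 37.8% of each library and were left out. The authors also deposited the GC content of genes in percent, used here for the GC trend. Their DESeq2 1.4.5 tables hold fold changes and p-values for each comparison, which were not used, and 25 columns of normalized values were not used either.

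Genes were filtered with filterByExpr of edgeR 4.0.16 (R 4.3.3, limma 3.58.1), scaled by TMM and fitted with 4 groups in 1 quasi-likelihood model (6 residual degrees of freedom). The interaction was a contrast of that model, with Benjamini-Hochberg adjustment and a threshold of 0.05. CPM are scaled by TMM. A fit with DESeq2 1.42.0 was an alternative. Exonic lengths came from the GENCODE annotation of GRCm38 and were found for 90.4% of the genes tested, and GC values for 88.5%. The procedure was tested on counts simulated for this interaction (16007 genes tested), where it called 68% and 78% of 50 genes each set at a log2 interaction of -1 and 1, 96% and 98% of those at -2 and 2, and 8 unchanged genes. The set genes were drawn from those above a level cutoff, and no other gene changed with genotype. Spread came from the fitted dispersions alone, without the differences in dissection or sex between real pools. These shares therefore do not say how many interactions of that size would be found in the real libraries.

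Genes were named where the study names them for these regions, where they were among the 5 lowest interaction p values in a direction (at least 5 CPM and no overlap between genotypes in a region), or where they were among the 2 lowest in a class (at least 1 CPM). Some genes that met this last rule are left out above, among them Prkcd, Myl9 and Opalin. Further members of a class, and the other genes under an FDR of 0.1, were named after their values were seen. The members and all 44 gene lists were chosen with earlier results of these data known. Figures were drawn with matplotlib 3.10.9.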

Additional observations from a re-analysis of the deposited data

How the results depend on the processing

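At an FDR under 0.05, no gene was called in either direction with the size factors of DESeq2, library size alone, at least 10 counts in each library, all 15 libraries in one fit or the GC trend removed. DESeq2 in place of edgeR called 54 genes higher and 202 lower, and edgeR without a count filter called 120 and 242. A threshold of 0.1 gave 3 and 9. The replicate numbers, taken from the sample titles, were not treated as pairs in the main fit. Same-numbered WT libraries correlated at 0.26, 0.05 and 0.19 across regions, and different-numbered WT libraries at -0.23 to 0.05. With 2 cKO libraries per region the deviations mirror each other, so the cKO values, 0.01 same-numbered and -0.01 otherwise, differ only in sign. Whether same-numbered pools shared mice was not tested. The deposited file names number the cKO dDG libraries 2 and 3 where the titles have 1 and 2, so the cKO correlation and the block counts rest on the numbering of the titles. A replicate block nested in genotype gave 50 and 98, a block by number 3 and 8, and the nested block with the GC trend removed 13 and 37. These 4 alternatives were chosen after seeing the data: removing the length trend gave 0 and 1, removing it with the nested block gave 36 and 128, excluding WT dDG replicates 2 and 3 gave 2 and 11, and excluding both WT libraries numbered 1 gave 1 and 0. Leaving out 1 library at a time, as planned with the other alternatives, gave 0 to 12 higher and 0 to 46 lower. The libraries whose absence made calls were WT vDG replicate 3 (1 and 9), cKO vDG replicate 2 (0 and 4), WT dDG replicate 1 (1 and 0), WT dDG replicate 3 (12 and 17) and cKO dDG replicate 1 (2 and 46). The cause was not tested. Of the values of single genes under these alternatives, 2109 kept their direction and side of the threshold, 184 passed it and 28 changed sign. Of the class medians under the alternatives, 890 were labelled the same and 142 moved. Excluding WT dDG replicates 2 and 3 turned Foxj1 to -0.043, Meg3 to 0.54 and Lct to -0.28, and excluding the WT libraries numbered 1 turned Htr4 to -0.075 and Rsph1 to 0.059. Lct was -0.020 with either replicate block, -0.040 with the GC trend removed and -0.080 with that and the nested block. With 1 library left out, the values ran from -0.57 to 0.023 for Alas2, -0.079 to 1.03 for Foxj1, -0.025 to 0.27 for Htr4, -0.37 to 0.32 for Lct, -0.91 to 0.26 for Meg3, -0.50 to 0.048 for Nr2e1, -0.51 to 0.18 for Rsph1, -0.053 to 0.32 for Spata13, -0.36 to 0.081 for Tyro3 and -0.16 to 1.75 for Xist. Each region has 2 cKO pools, and the biological coefficient of variation was 0.14.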
